A study of Caenorhabditis elegans with 12 samples.

Results

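The sdz genes of the nematode Caenorhabditis elegans were named as zygotic transcripts that depend on SKN-1, and here they were followed as a view on the embryos that gravid adults carry. The set was chosen by name. It holds the 36 gene rows called sdz with a number, plus med-1, end-1, end-3, tbx-37 and tbx-38, 41 genes of 45836 in the count table. RNA was measured in whole gravid adults, in 4 groups of 3 libraries, each group with 3 biological replicates and each replicate from 3 plates, per the labels. F3 adults were wild-type N2 descendants of worms from 25 °C. Their ancestors had been transferred at the L4 stage, 3 generations passed at 20 °C, and adults were collected 72 to 76 h after eggs were plated. F0 adults were the N2 ancestors, kept at 25 °C for 5 generations and collected at 54 to 56 h, so that temperature and hours of growth cannot be told apart. Adults labelled set-25 were strain MT17463, which carries set-25(n5021) III, raised at 20 °C and likewise collected 72 to 76 h after plating. The product of set-25 methylates histone H3. Control adults were N2 worms kept at 20 °C and handled in parallel with F0 and F3, and the labels give no separate hours for them. No parallel wild type is named for set-25, so genotype and time of preparation cannot be told apart. All 3 wild-type groups share the N2 background, and the comparisons of F0, F3 and set-25 with control share the same 3 control libraries.

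SKN-1 is a maternally supplied transcription factor that acts in the descendants of the EMS blastomere, which gives rise to the gut and to much of the pharynx and body wall muscle. It switches on the near-identical GATA factor genes med-1 and med-2. In the E cell, which founds the gut, the MED factors together with Wnt signalling through POP-1 turn on end-1 and end-3, whose products start elt-7 and elt-2. In the sister cell MS the MED factors turn on tbx-35. The closely related T-box genes tbx-37 and tbx-38 act in descendants of the ABa blastomere. These transcripts are made in embryos of few cells, and in RNA from whole adults they come mixed with the RNA of the mother. Fewer embryos of a stage, less RNA per embryo and RNA of the same genes made by the mother therefore cannot be told apart. Whether the sdz RNA came from embryos or from the mother was not tested.

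Depth was 28217840 to 35483865 counts per library in the wild-type groups. The set-25 libraries stood apart, with 22682534, 26289581 and 10678819 counts. Ribosomal RNA took 3.43 to 4.93% of counts in wild-type libraries and 11.7, 4.01 and 26.3% in set-25 libraries 1, 2 and 3. Some set-25 results are therefore also given without libraries 1 and 3. Other set-25 values, those of most single genes among them, are given with all 3 libraries only. Levels are given in CPM, counts scaled to library sizes that were corrected by the TMM method, and 1 count was worth 0.0280 to 0.0356 CPM in wild-type libraries and up to 0.123 CPM in set-25 library 3. The 41 genes took 0.00749 to 0.00823% of gene counts in F3, 0.0103 to 0.0111% in F0, 0.00886 to 0.00927% in set-25 and 0.00691 to 0.00826% in control. The lesion of the set-25 allele is not given in the labels. The set-25 transcript averaged 56.4 CPM in set-25 adults and 67.5 CPM in control adults, a log2 fold change of -0.24 ± 0.07 (SE, adjusted p = 0.033), which does not check the labels. It was lower in F0 than in control as well, at 53.2 CPM and a log2 value of -0.34 ± 0.07 (adjusted p = 0.0019).

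A share of the sdz genes was higher in F0 than in control adults. Of the 41 genes, 32 had enough counts to be tested among 14466 genes, and 12 of the 32 were higher in F0 than in control at an adjusted p under 0.05 (edgeR's quasi-likelihood test, Benjamini-Hochberg over all genes tested). None was lower. All 12 were sdz genes, of 28 sdz genes tested, led by sdz-6 and sdz-24. Across all genes tested, 16.7% were higher and 12% lower in F0. The median log2 fold change of the 32 genes was 0.45, against 0.0076 over all genes tested, and 27 of them had a positive value. In 15 of the 32, every F0 library lay above every control library, which held for 26.1% of all genes tested.

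In F3 adults, 3 generations after the return to 20 °C, none of the 32 genes differed from control by edgeR or by DESeq2, and 3 had an unadjusted p under 0.05. The median log2 fold change over control was 0.0082. The background was low as well, since 0.138% of all genes tested were higher and 0.124% lower in F3 than in control. Set directly against F0, 10 of the 32 were lower in F3 and none higher, where 17.3% of all genes were lower and 13.1% higher. The median log2 fold change was -0.48, against -0.0108 over all genes. In 18 of the 32, every F3 library lay below every F0 library, against 23.3% of all genes. F3 over F0 and F0 over control share the F0 libraries.

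In set-25 adults, 6 of the 32 genes were higher than in control and none lower, where 8.9% of all genes were higher and 8.14% lower. The median log2 fold change was 0.29, against -0.0013 over all genes, with 20 positive values and 12 negative ones. This count rested on single libraries. It was 1 without set-25 library 3, 2 without set-25 library 1, 1 without control library 3 and 2 without control library 1. Without set-25 libraries 1 and 3 together it was 1, namely sdz-6, and the median log2 fold change was 0.09.

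**Figure D1:**
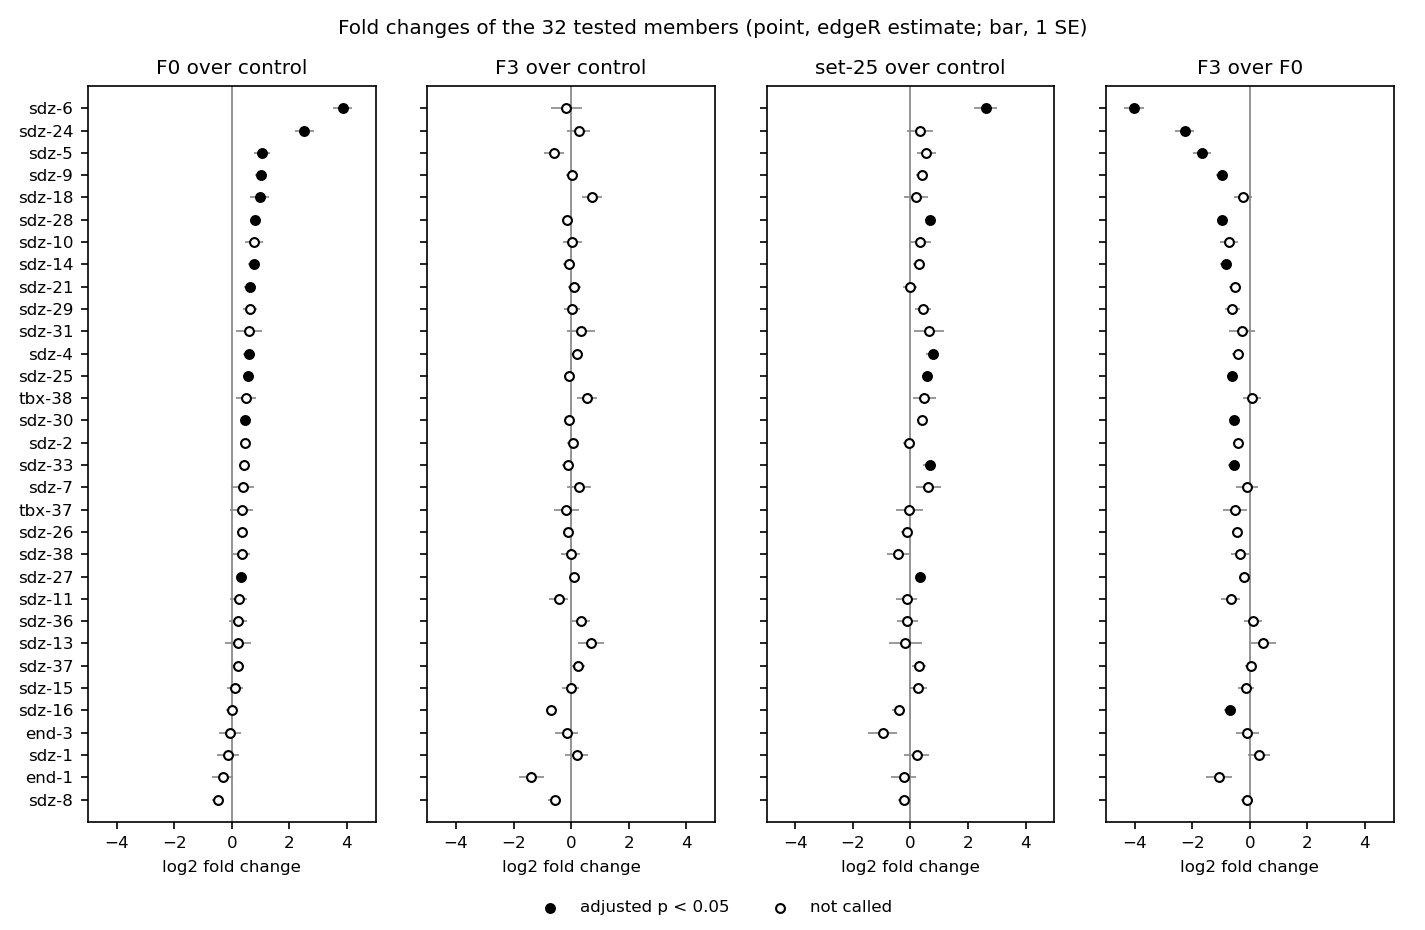
Log2 fold changes of the 32 tested genes in 4 comparisons, ordered by the change in F0 over control; points are edgeR estimates, bars 1 SE, and filled points have an adjusted p under 0.05. In F0 over control 12 points are filled, all to the right of 0, in F3 over control none is, in set-25 over control 6 are, and in F3 over F0 10 are, all to the left.

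Transcripts of sdz-6 showed the widest difference. They stood at 0.0653, 0.0640 and 0.211 CPM in F3 libraries, 1.82, 1.97 and 1.8 CPM in F0 libraries, 0.964, 0.721 and 0.616 CPM in set-25 libraries and 0.107, 0.112 and 0.156 CPM in control libraries. Every F0 library lay above every set-25 library, and every set-25 library above every F3 and control library. The low groups rest on few counts, 9.5 over the 3 F3 libraries and 12 over the 3 control libraries, against 192 in F0 and 43.75 in set-25. The log2 fold change of sdz-6 was 3.85 ± 0.33 in F0 over control (SE, adjusted p = 1.5e-07), 2.62 ± 0.40 in set-25 over control (adjusted p = 0.0002) and -4.02 ± 0.34 in F3 over F0 (adjusted p = 1.4e-07). Among the 6 genes called in set-25, sdz-6 was the one that kept its call in all 13 alternatives, with log2 values of 2.42 to 2.80.

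For sdz-24 the libraries had 0.718, 0.384 and 0.281 CPM in F3, 1.82, 2.98 and 1.94 CPM in F0, 0.337, 0.645 and 0.369 CPM in set-25 and 0.498, 0.421 and 0.249 CPM in control. Here the F0 libraries stood above the other 9, which overlapped one another. The log2 fold change was 2.53 ± 0.32 in F0 over control (adjusted p = 1.7e-05) and -2.27 ± 0.32 in F3 over F0 (adjusted p = 4.2e-05). In set-25 over control it was 0.32 ± 0.45 (adjusted p = 0.68), and the difference between the changes in F0 and set-25 was not tested. An exon of sdz-24 overlaps sri-45 on the other strand in the WBcel235 annotation. The strand setting of the counting, not given in the sources used here, decides whether their reads are kept apart, and sri-45 itself had 3.5 counts in F3, 8 in F0, 4 in set-25 and 8 in control.

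Next by size came sdz-5, sdz-9 and sdz-18. Libraries had 0.783, 0.448 and 0.351 CPM of sdz-5 in F3, 1.59, 1.73 and 1.71 CPM in F0, 1.16, 0.911 and 1.85 CPM in set-25 and 0.996, 0.954 and 0.467 CPM in control. F0 stood above F3 and control without overlap, while set-25 libraries spread from the control range to above F0. On the log2 scale the change in sdz-5 was 1.06 ± 0.29 in F0 over control (adjusted p = 0.01) and -1.65 ± 0.31 in F3 over F0 (adjusted p = 0.0006). Without control library 3 the first of these had an adjusted p of 0.060. Levels of sdz-9 were 1.24, 1.66 and 1.61 CPM in F3, 3.29, 2.48 and 3.16 CPM in F0, 2.12, 1.59 and 2.46 CPM in set-25 and 1.46, 1.65 and 1.31 CPM in control. Again F0 lay above all other libraries. For sdz-9 the log2 fold change was 1.01 ± 0.19 in F0 over control (adjusted p = 0.0006) and -0.98 ± 0.19 in F3 over F0 (adjusted p = 0.00071).

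The pattern of sdz-18 was another one. Its libraries had 0.653, 0.768 and 0.877 CPM in F3, 0.676, 1.13 and 0.912 CPM in F0, 0.289, 0.645 and 0.739 CPM in set-25 and 0.569, 0.561 and 0.249 CPM in control. F3 and F0 overlapped and both lay above control. In F0 over control the log2 fold change was 0.98 ± 0.33 (adjusted p = 0.036), in F3 over control 0.73 ± 0.35 (adjusted p = 0.99) and in F3 over F0 -0.25 ± 0.31 (adjusted p = 0.60). The call in F0 was lost by DESeq2 and without F0 library 2, F0 library 3 or control library 3, with adjusted p up to 0.17.

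The shifts of sdz-28 and sdz-14 were smaller. Libraries had 3.33, 3.90 and 3.19 CPM of sdz-28 in F3, 6.18, 7.01 and 7.04 CPM in F0, 6.65, 4.97 and 7.63 CPM in set-25 and 3.45, 4.99 and 3.05 CPM in control. F0 was clear of F3 and control, and set-25 library 2 fell just under control library 2. For sdz-28 the log2 fold change was 0.81 ± 0.17 in F0 over control (adjusted p = 0.0015), 0.68 ± 0.18 in set-25 over control (adjusted p = 0.016) and -0.95 ± 0.17 in F3 over F0 (adjusted p = 0.00043). For sdz-14 the levels were 1.83, 1.82 and 2.11 CPM in F3, 3.59, 3.40 and 3.28 CPM in F0, 3.18, 1.75 and 2.59 CPM in set-25 and 2.28, 2.1 and 1.68 CPM in control. F0 stood above every other library. On the log2 scale the change in sdz-14 was 0.76 ± 0.18 in F0 over control (adjusted p = 0.0043) and -0.83 ± 0.18 in F3 over F0 (adjusted p = 0.0022).

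By length, sdz-27 and sdz-30 were the most abundant of the 36 genes for which the WBcel235 annotation gave an exon length. Per kilobase, sdz-27 averaged 49.97 CPM in F3, 57.7 in F0, 58.7 in set-25 and 46.4 in control, and sdz-30, the next, averaged 7.62 in F0 and 5.49 in control. On that scale sdz-6 ranked 7 of the placed genes in F0 and 31 in control, and sdz-24 ranked 10 in F0 and 25 in control. Libraries had 40.7, 33.3 and 31.5 CPM of sdz-27 in F3, 42, 38.3 and 41.5 CPM in F0, 38.8, 40.4 and 44.8 CPM in set-25 and 35.3, 32.4 and 30.2 CPM in control. F0 and set-25 both lay above control, while F3 overlapped each of them. On the log2 scale the change in sdz-27 was 0.32 ± 0.09 in F0 over control (adjusted p = 0.012) and 0.33 ± 0.09 in set-25 over control (adjusted p = 0.02). In F3 over F0 it was -0.21 ± 0.09 (adjusted p = 0.082). The sdz-30 libraries had 6.99, 9.22 and 9.54 CPM in F3, 11.4, 13.2 and 12.8 CPM in F0, 12.3, 9.49 and 14.9 CPM in set-25 and 8.53, 9.70 and 8.69 CPM in control. Set-25 overlapped control and F0 did not. For sdz-30 the log2 fold change was 0.47 ± 0.13 in F0 over control (adjusted p = 0.014), -0.54 ± 0.13 in F3 over F0 (adjusted p = 0.006) and 0.39 ± 0.14 in set-25 over control (adjusted p = 0.074). Leaving out F0 library 2 or 3, or control library 1 or 3, put the first of these just past the threshold, at 0.051 to 0.058.

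The 4 genes sdz-4, sdz-21, sdz-25 and sdz-33 showed smaller shifts, each with a call that single libraries decided. Libraries had 1.18, 1.54 and 1.61 CPM of sdz-4 in F3, 1.71, 1.91 and 2.11 CPM in F0, 2.41, 1.67 and 2.59 CPM in set-25 and 0.924, 1.49 and 1.31 CPM in control. For sdz-4 the log2 fold change was 0.61 ± 0.22 in F0 over control (adjusted p = 0.043) and 0.77 ± 0.23 in set-25 over control (adjusted p = 0.03). Both groups stood above control, and the F0 call was lost by DESeq2 and without any 1 of the F0 libraries or control library 1 or 3. The sdz-21 libraries had 1.11, 1.02 and 1.79 CPM in F3, 1.82, 1.85 and 1.97 CPM in F0, 1.20, 1.21 and 1.11 CPM in set-25 and 1.07, 1.35 and 1.18 CPM in control. Only F0 stood apart from control for sdz-21, with a log2 fold change of 0.64 ± 0.21 (adjusted p = 0.028), and the same 6 alternatives as for sdz-4 ended the call. In F3 over F0, sdz-4 had a log2 value of -0.41 ± 0.21 (adjusted p = 0.17) and sdz-21 one of -0.53 ± 0.21 (adjusted p = 0.063).

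Levels of sdz-25 were 2.58, 2.30 and 2.98 CPM in F3, 3.44, 4.95 and 3.79 CPM in F0, 4.19, 3.79 and 4.55 CPM in set-25 and 2.60, 3.37 and 2.30 CPM in control. F0 and set-25 overlapped each other and lay above F3 and control. For sdz-25 the log2 fold change was 0.55 ± 0.17 in F0 over control (adjusted p = 0.021), 0.57 ± 0.18 in set-25 over control (adjusted p = 0.041) and -0.63 ± 0.17 in F3 over F0 (adjusted p = 0.0098). Its F0 call was lost without F0 library 2, control library 1 or control library 3. Libraries had 1.44, 2.05 and 1.75 CPM of sdz-33 in F3, 2.26, 2.68 and 2.77 CPM in F0, 3.47, 2.50 and 3.20 CPM in set-25 and 1.56, 2.47 and 1.62 CPM in control. Control library 2 reached into the F0 range and just under the set-25 range. For sdz-33 the log2 fold change was 0.66 ± 0.21 in set-25 over control (adjusted p = 0.039), -0.56 ± 0.20 in F3 over F0 (adjusted p = 0.045) and 0.44 ± 0.20 in F0 over control (adjusted p = 0.11). Apart from sdz-6, each gene called in set-25 lost its call in 5 to 7 of 13 alternatives.

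One sdz gene, sdz-16, differed from the others in that F0 and control had the same level. Its libraries had 1.04, 0.928 and 1.19 CPM in F3, 1.41, 1.85 and 1.82 CPM in F0, 1.25, 1.37 and 1.11 CPM in set-25 and 1.71, 1.88 and 1.49 CPM in control. The F3 and the set-25 libraries lay below every F0 and control library. The log2 fold change was -0.69 ± 0.20 in F3 over F0 (adjusted p = 0.014), a call lost without F3 library 2, F0 library 2 or F0 library 3, and -0.69 ± 0.20 in F3 over control (adjusted p = 0.48). In F0 over control the log2 value was -0.0005 ± 0.18 (adjusted p = 1.0).

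**Figure D2:**
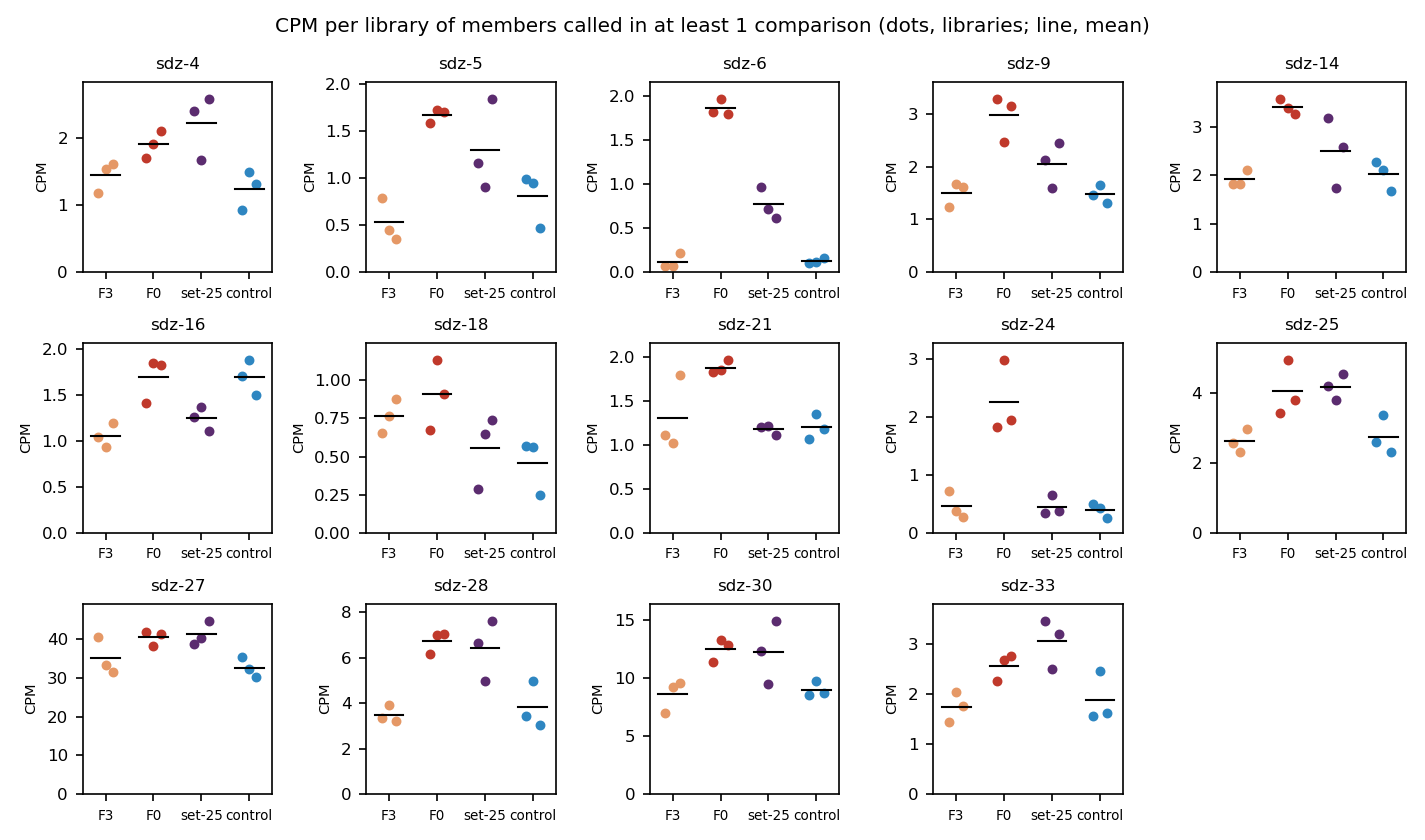
CPM in each of the 12 libraries (dots) and the mean of each group (line) for the 14 sdz genes called in at least 1 comparison, with groups in the order F3, F0, set-25, control. The sdz-6 panel shows F0 at 1.8 to 1.97 CPM and set-25 at 0.616 to 0.964 CPM over F3 and control near 0, and the sdz-24 panel shows F0 alone apart.

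The other 14 tested sdz genes passed the threshold in none of the 4 comparisons. Their group means ran from 0.25 CPM, for sdz-13 in control, to 4.07 CPM, for sdz-26 in F0. In F0 over control, sdz-10 had a log2 value of 0.78 ± 0.31 (adjusted p = 0.073), sdz-29 one of 0.63 ± 0.25 (adjusted p = 0.064) and sdz-2 one of 0.46 ± 0.17 (adjusted p = 0.052). Of these, sdz-2 and sdz-10 had every F0 library above every control library, as did sdz-26, at 4.06, 4.15 and 3.99 CPM in F0 and 2.56, 3.53 and 3.49 CPM in control. The RefSeq table lists sdz-29 as a pseudogene. The opposite order was seen for sdz-8, at 0.979, 1.06 and 1.12 CPM in F3, 1.15, 1.25 and 0.998 CPM in F0, 0.964, 1.52 and 1.72 CPM in set-25 and 1.49, 1.63 and 1.59 CPM in control. Both F3 and F0 lay below control there, with log2 fold changes of -0.58 ± 0.21 (adjusted p = 0.85) and -0.47 ± 0.20 (adjusted p = 0.093). For sdz-1, sdz-7, sdz-11, sdz-13, sdz-15, sdz-31, sdz-36, sdz-37 and sdz-38 the F0 and control libraries overlapped, with log2 values of -0.13, for sdz-1, to 0.61, for sdz-31.

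None of the 4 transcription factor genes tested passed the threshold in any comparison by edgeR or DESeq2, and their levels were low. The GATA factor gene end-1 stood at 0.196, 0.160 and 0.211 CPM in F3, 0.353, 0.268 and 0.570 CPM in F0, 0.337, 0.417 and 0.616 CPM in set-25 and 0.498, 0.701 and 0.280 CPM in control. The F3 libraries lay below every other library, on 16.5 counts in all against 48 in control. The log2 fold change of end-1 was -1.38 ± 0.44 in F3 over control, with an unadjusted p of 0.0056 and an adjusted p of 0.59, and -1.07 ± 0.45 in F3 over F0 (adjusted p = 0.084). Its partner end-3 had 0.588, 0.192 and 0.491 CPM in F3, 0.353, 0.537 and 0.456 CPM in F0, 0.241, 0.152 and 0.492 CPM in set-25 and 0.604, 0.449 and 0.374 CPM in control. All 4 groups overlapped, and the log2 fold change was -0.07 ± 0.38 in F0 over control (adjusted p = 0.92) and -0.96 ± 0.50 in set-25 over control (adjusted p = 0.20).

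Libraries had 0.229, 0.352 and 0.491 CPM of tbx-37 in F3, 0.559, 0.537 and 0.428 CPM in F0, 0.386, 0.531 and 0 CPM in set-25 and 0.498, 0.393 and 0.311 CPM in control. The 0 was in set-25 library 3, the shallowest, where 3 counts are worth 0.369 CPM. For tbx-38 the levels were 0.392, 0.576 and 0.421 CPM in F3, 0.500, 0.537 and 0.285 CPM in F0, 0.482, 0.379 and 0.492 CPM in set-25 and 0.356, 0.337 and 0.249 CPM in control. F3 and set-25 lay above control for tbx-38 and F0 overlapped it, with log2 fold changes of 0.56 ± 0.35 (adjusted p = 1.0), 0.48 ± 0.39 (adjusted p = 0.44) and 0.48 ± 0.35 (adjusted p = 0.32) in F3, set-25 and F0. In F0 over control tbx-37 had a log2 value of 0.35 ± 0.39 (adjusted p = 0.55). These 2 genes are close relatives, and reads that match both may have been divided between them. The summed level of the 5 factor genes was 1.44 ± 0.155 CPM in F3, 1.81 ± 0.070 CPM in F0, 1.64 ± 0.182 CPM in set-25 and 1.70 ± 0.422 CPM in control (SD, n = 3 each).

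The first zygotic step, med-1, was barely covered. It had 1.25 counts over the 3 F3 libraries, 2.25 in F0, 5.25 in set-25 and 2.25 in control, and its near-identical copy med-2 had 3.75, 0.75, 1.75 and 9.75 in the same order, so reads may have been divided between them. Neither was tested. The other 8 untested genes were sdz-3, sdz-12, sdz-19, sdz-20, sdz-23, sdz-32, sdz-34 and sdz-35, with at most 27.5 counts over the libraries of any group, and sdz-34 had 0 counts in F3 and control. With no filter on low counts, sdz-3 was called higher in F0, on 14.75 counts against 2 in control.

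**Figure D3:**
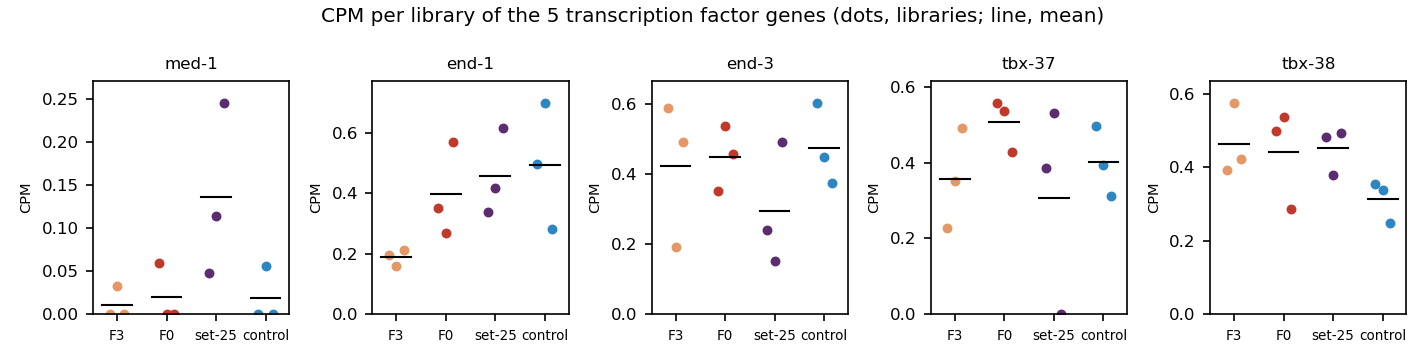
CPM in each library (dots) and group mean (line) of the 5 transcription factor genes, with groups in the order F3, F0, set-25, control and axes that start at 0. For end-1 the F3 libraries lie at 0.160 to 0.211 CPM, under every other library, and the remaining panels show groups that overlap or lie within 1 CPM of each other.

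Summed over the 41 genes, the level was 76.4 ± 2.02 CPM in F3, 104 ± 3.23 CPM in F0, 96.5 ± 9.94 CPM in set-25 and 75.5 ± 6.18 CPM in control (SD, n = 3 each). In this sum sdz-27 weighed most, and without it the libraries stood at 38, 41.6 and 44.0 CPM in F3, 58.5, 68.1 and 64.4 CPM in F0, 56.0, 47.2 and 62.4 CPM in set-25 and 40.5, 49.1 and 39.0 CPM in control. F0 lay above F3 and control with or without sdz-27, while without it set-25 library 2 fell inside the control range. Gene by gene, the highest group mean was in F0 for 17 of the 32 tested genes, in set-25 for 9 and in F3 and control for 3 each. The lowest was in F3 and control for 12 each, in set-25 for 7 and in F0 for 1. The median coefficient of variation within a group was 15.9% in F3, 14.6% in F0, 27.3% in set-25 and 20.8% in control, where counting alone would give 19.9, 13.6, 22.1 and 19% in that order.

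The genes upstream moved by less, and in F0 the other way. Of 19 maternal regulators of the endoderm and mesoderm decision, 5 were lower in F0 than in control and none higher, where 12% of all genes were lower, with a median log2 fold change of -0.08. Among them were mom-2, the Wnt ligand gene, at -0.17 ± 0.03 (adjusted p = 0.0011), and the genes of the CCCH zinc finger proteins mex-6, at -0.22 ± 0.05 (adjusted p = 0.0016), and pos-1, at -0.20 ± 0.05 (adjusted p = 0.0065). In F3 over F0, 9 of the 19 were higher and none lower, where 13.1% of all genes were higher, with mex-6 at 0.26, mom-2 at 0.19 and the Wnt receptor gene mom-5 at 0.15. In F3 over control none was called, 0 also by DESeq2 and 0 at an unadjusted p under 0.05. In set-25 over control 10 of the 19 were higher, where 8.9% of all genes were, and none lower, at a median of 0.14, led by mex-6 at 0.51 ± 0.05, mom-5 at 0.32 ± 0.04 and mex-5 at 0.37 ± 0.05, and 6 were called without set-25 libraries 1 and 3. The gene of SKN-1 itself averaged 111.9 CPM in F3, 107.1 CPM in F0, 135.9 CPM in set-25 and 108.6 CPM in control. It did not pass the threshold in F0, at -0.02, or in F3, at 0.04, and was higher in set-25, at 0.32 ± 0.04 (adjusted p = 5.7e-05). The gene of POP-1, the TCF factor at the end of the Wnt pathway, averaged 40.2 CPM in F3, 40.2 CPM in F0, 41 CPM in set-25 and 39.3 CPM in control, with no call.

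Maternal transcripts of the step from oocyte to embryo, a list of 29 genes, gave 10 lower and none higher in F0 over control, where 12% of all genes were lower, at a median log2 of -0.11. Without F0 library 2 the count was 6. The genes with the smallest p were egg-3, needed at egg activation, at -0.25 ± 0.03, nos-2, a nanos gene of the germ line, at -0.20 ± 0.04, and zif-1, which targets maternal CCCH proteins for breakdown, at -0.13 ± 0.03. In F3 over F0 13 were higher and none lower, where 13.1% of all genes were higher, with egg-3 at 0.26, nos-2 at 0.24 and the kinase gene mbk-2 at 0.17. In set-25 over control 3 of the 29 were higher, a share near the 8.9% of all genes, and 1 was lower, where 8.14% of all genes were. Among the 3 were mbk-2 at 0.41 ± 0.04 and the polarity kinase gene par-1 at 0.27 ± 0.04. The 1 lower was the polarity gene par-2 at -0.44 ± 0.06.

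Of 31 other early zygotic genes listed, 27 were in the table and 21 were tested, and 5 were higher and none lower in F0 than in control, where 16.7% of all genes were higher, at a median log2 of 0.32. The genes pes-2.1 and pes-2.2 had log2 values of 0.73 ± 0.11 (adjusted p = 0.00019) and 0.72 ± 0.11 (adjusted p = 0.00023). With 5613.14 and 5622.19 counts over the 12 libraries they may share most of their reads and are 1 uncertain pair. Both were counted among the 5 and the 21, so the 5 may hold the same change more than once. The Wnt gene cwn-1 had 0.67 ± 0.11 (adjusted p = 0.00028). In F3 over F0 6 of the 21 were lower, where 17.3% of all genes were. Among them were the same pair at -0.74 each, again both counted, and the very early transcript gene vet-2 at -0.38 ± 0.07. In set-25 over control 4 were higher, where 8.9% of all genes were, led by die-1, a zinc finger gene of embryonic morphogenesis, at 0.41 ± 0.06, and by vet-2 at 0.33 ± 0.07 and vet-1 at 0.63 ± 0.15. That count was 1 without set-25 libraries 1 and 3. The early zygotic gene pes-10 averaged 4.86 CPM in F3, 5.37 CPM in F0, 5.42 CPM in set-25 and 4.96 CPM in control and was called in no comparison.

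A further list held 11 regulators of gut, pharynx and mesoderm, of which 9 were tested, med-2 and tbx-35 being the exceptions. It includes med-2, itself a MED factor, and whether the others act downstream of the MED and END factors was not tested. In F0 over control 2 of the 9 were higher, a share near the 16.7% of all genes, at a median log2 of 0.35. They were hnd-1, a bHLH gene of early mesoderm, at 0.92 ± 0.21 (adjusted p = 0.0029), and pha-4, the FoxA gene of the pharynx, at 0.62 ± 0.17 (adjusted p = 0.01), and pha-4 was not called without control library 1 or 3. In F3 over F0 5 were lower, where 17.3% of all genes were, led by hnd-1 at -1.25 ± 0.22, hlh-1, the MyoD gene, at -0.68 ± 0.21 and tbx-2, a T-box gene of pharyngeal muscle, at -0.53 ± 0.16. This count was 1 to 3 when either F0 library 1 or 2 or any 1 F3 library was left out, and 3 by DESeq2. In set-25 over control 1 of the 9, where 8.9% of all genes were higher, passed the threshold, and this was pha-4 at 0.81 ± 0.18 (adjusted p = 0.0049), and it was not called without set-25 libraries 1 and 3. The gut factor genes were called in no comparison. For elt-7 the group means were 2.58 CPM in F3, 2.96 CPM in F0, 2.80 CPM in set-25 and 2.33 CPM in control, and for elt-2, which the mother's own gut also makes, 8.53, 8.20, 8.25 and 9.23 CPM in the same order.

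Genes listed for the matrix that late embryos lay down before hatching had the highest median of the 6 lists in F0. Whether their RNA came from embryos or from the mother was not tested. All 8 tested were higher in F0 than in control, where 16.7% of all genes were, at a median log2 of 1.04. All 8 were lower in F3 than in F0, where 17.3% of all genes were, at -1.14. The zona pellucida domain genes noah-2 and noah-1 had 1.25 ± 0.13 (adjusted p = 3.0e-06) and 1.06 ± 0.12 (adjusted p = 5.4e-06) in F0 over control, and the collagen gene sqt-3 had 0.61 ± 0.13 (adjusted p = 0.0013). Their summed level was 36.6 to 36.7 CPM in F3 libraries, 61.8 to 80.1 CPM in F0, 33.3 to 50.1 CPM in set-25 and 37.2 to 42 CPM in control. In set-25 the sum overlapped control. There 1 of the 8 was called, sqt-3, lower at -0.63 ± 0.15, where 8.14% of all genes were lower.

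**Figure D4:**
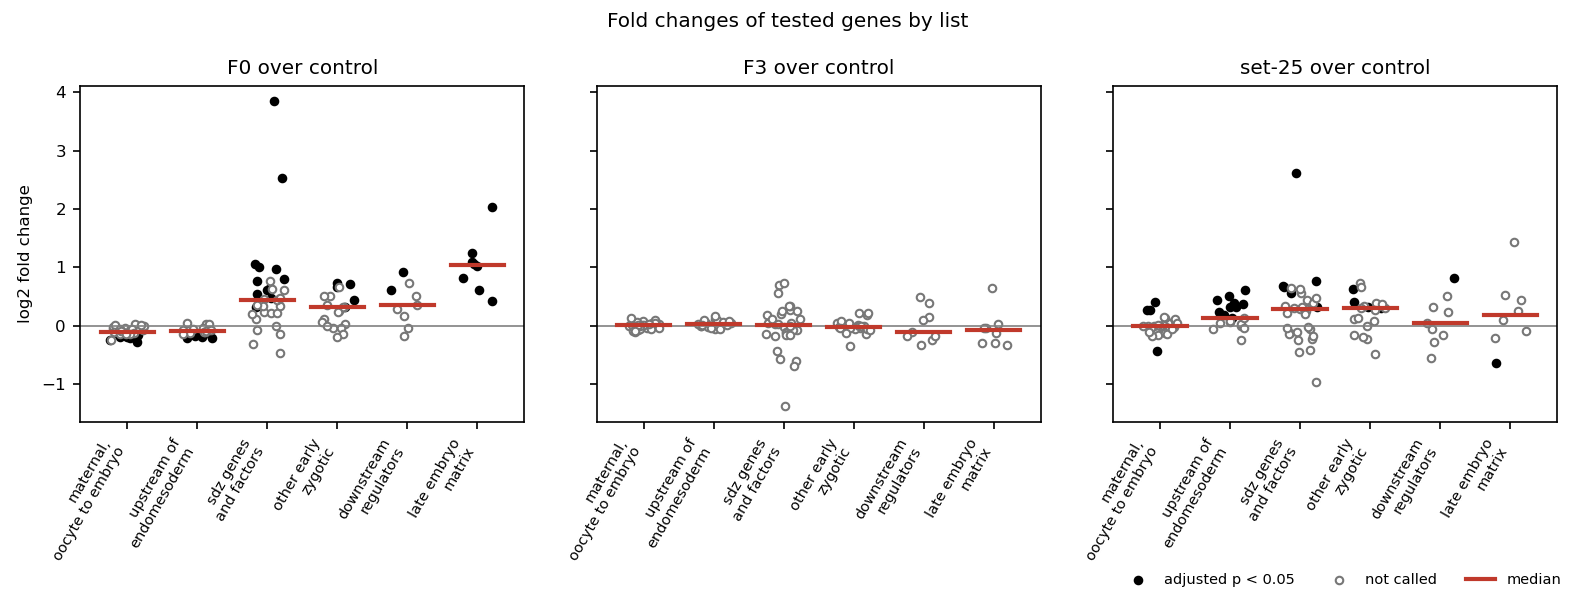
Log2 fold changes of tested genes in 6 lists ordered from maternal to late embryo, for F0, F3 and set-25 over control; each point is a gene, filled points have an adjusted p under 0.05, and red lines are medians. In F0 the medians are -0.11 and -0.08 for the maternal and upstream lists and 0.45 for the sdz genes and factors. They are 0.32 for other early zygotic genes, 0.35 for the list labelled downstream regulators and 1.04 for late embryo matrix genes, so the order is not a steady rise. In F3 no point is filled.

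Among markers of the adult's own tissues, sperm genes were higher in F0. Of 15 sperm genes, 9 were tested and 8 were higher in F0 than in control, at a median log2 of 1.76. Some of the 9, with spe-11, ssp-16 and ssp-31 among them, had at most 0.252 CPM in any library outside F0. These passed the count filter only through F0, the group where they were high, which raises the share and the median. With no filter all 15 were tested and 10 were higher, at a median of 1.21. The summed level of the 15 was 22.3 to 26.7 CPM in F0 libraries and 7.78 to 9.96 CPM in control libraries. All 31 tested genes of the major sperm protein class were higher in F0, at a median of 2.96, and with no filter 33 of 35 were, at 2.91. The other tissues were nearer to the shares over all genes, 16.7% higher and 12% lower. In muscle 3 of 9 markers were higher and none lower, in the intestine 1 of 12 was higher and 3 lower, and in the germ line 1 of 12 was higher and 3 lower. In the epidermis 1 of 8 was higher and none lower. The part of the sperm genes in the sdz result was not tested. In F3 over control none of these markers was called by edgeR or DESeq2, and 1 germ line and 3 epidermal genes had an unadjusted p under 0.05. Sperm and major sperm protein genes had no call in set-25 over control by either tool, with 2 sperm genes at an unadjusted p under 0.05. Epidermal markers were lower there in 3 of 8 cases and higher in none, against 8.14% of all genes lower, at a median log2 of -2.35. The 3 were col-19, an adult cuticle collagen gene, at -0.28 ± 0.08, bli-1 at -1.86 ± 0.43 and lon-3 at -2.86 ± 0.89. Their number was 0 without set-25 library 2, 1 without set-25 library 1 and 2 without set-25 libraries 1 and 3. The median log2 was -1.17 without control library 1 and -3.30 without control library 3. With the 6 libraries alone it was -0.36, over 4 tested genes. Control libraries were widely spread, at 0.218 to 5.23 CPM of dpy-13 and 0.0934 to 1.92 CPM of sqt-1. Counts of lon-3 were 3 in set-25 and 41 in control. The summed level of the epidermal list was 899 to 1066 CPM in set-25 libraries and 1149 to 1175 CPM in control libraries. In set-25 over control 8.9% of all genes were higher and 8.14% lower. In the germ line 2 of 12 markers were higher and 3 lower there, in the intestine 1 of 12 and 1, and in muscle 1 of 9 and 1. For the intestine and muscle these were near the shares over all genes. The part of the tissue markers in the set-25 result was not tested.

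By the annotation, many sdz genes shared a chromosome. The RefSeq table for WBcel235 held 40 of the 41 genes (all but sdz-2), 37 as protein coding and 3, sdz-3, sdz-29 and sdz-34, as pseudogenes. Of 35 sdz genes with a chromosome, 17 lay on chromosome II, or 48.6%, against 17.6% of 14054 tested genes that could be placed. The 35 include untested genes and pseudogenes, so these shares come from unlike sets. Across all genes tested, on any chromosome, 16.7% were higher in F0 than in control. Of the 13 members tested on chromosome II, 6 were higher in F0. On chromosome I 2 of 2 were, on III 1 of 6, on IV 2 of 4 and on V 1 of 6. These numbers are small, and differences between chromosomes were not tested. A gene of an F-box class was next to 8 of 36 placed members, or 22.2%, against 2.7% of 19985 coding genes. They were sdz-4, sdz-9, sdz-10, sdz-11, sdz-18, sdz-27, sdz-32 and sdz-33, and sdz-9 and sdz-10 were neighbours of each other. In 15 members counts were not whole in more than 6 libraries, and for sdz-25 and sdz-27 in all 12, so reads shared with other places may have entered those values.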

How the data were processed

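RNA from whole gravid adults was made into strand-specific total RNA libraries depleted of ribosomal RNA and without poly(A) selection, as the labels' protocols state. The authors deposited 1 table of estimated counts, not normalized, for 45836 genes and 53925 repeat copies, and at a tolerance of 1e-06 a share of 22.4% held a fraction. Per the submitters' processing notes the tools were DESeq2 1.8.1, featureCounts 1.5.1 and TopHat2 2.1.0, with no role stated. How reads with several matches were treated, the strand setting, the annotation and the genome build: not given in the sources used here. The column names stand in the sample labels, and 0 columns were left unused.

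Counts were rounded and tested with edgeR 4.0.16 in R 4.3.3 (filterByExpr by group, TMM scaling, robust quasi-likelihood fit, two-sided). A single fit held all 12 libraries and the 4 groups as terms, and 14466 genes were tested in 4 comparisons. Genes with a Benjamini-Hochberg adjusted p under 0.05 over all genes tested were called. CPM are rounded counts over TMM-scaled library sizes, and sums over genes are descriptions with no test. The p-values rest on the spread between replicates within groups, estimated for each gene over the 4 groups together, with 8 residual degrees of freedom. The spread of set-25 alone was not modelled. The scripts were checked on simulated data. Members and lists were chosen with earlier results of these data known. Members called in any comparison were given in every library, and of each list up to 3 called genes with the smallest p per comparison were named, with skn-1, pop-1, med-2, elt-2, elt-7, pes-10 and set-25 throughout. Alternatives were DESeq2 1.42.0, its size factors in edgeR, no count filter, a replicate block, the 6 libraries compared alone, each library left out and set-25 libraries 1 and 3 left out. Unrounded counts were an alternative chosen after seeing the data. Promoter and protein sequences were not analysed here.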

Additional observations from a re-analysis of the deposited data

How the results depend on the processing

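No called gene of the set changed sign under any alternative. Of the 12 genes higher in F0 than in control, sdz-6, sdz-9, sdz-14, sdz-24 and sdz-28 were called in all 12 alternatives, and leaving out single libraries gave 5 to 14 genes. For F3 over F0 the 10 genes became 7 to 10 when 1 library was left out, 13 with no low-count filter and 11 with the 6 libraries alone. Of the 10, sdz-5, sdz-6, sdz-9, sdz-14, sdz-24, sdz-28 and sdz-30 were called in all 12 alternatives. For set-25 over control the 6 became 1 to 5 when 1 library was left out, and 1 without set-25 libraries 1 and 3. For F3 over control the count was 0 throughout.

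Deviations of same-numbered libraries from the group means correlated at -0.21 to 0.12 over all genes tested. Whether such libraries shared a batch cannot be told from these values. With a replicate block the counts were 13 for F0, 0 for F3, 5 for set-25 (without sdz-25) and 9 for F3 over F0 (without sdz-33).

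Over all genes, the 38 called in F3 over control became 96 with no low-count filter, 15 with the 6 libraries alone and 20 to 104 when 1 library was left out. The 2465 called in set-25 over control became 742 without set-25 libraries 1 and 3 and 1595 to 1918 with 1 library left out. Calls in F0 over control ran from 3236 to 3386, of 4152, and in F3 over F0 from 3450 to 4851, of 4391, with 1 library left out. The causes were not tested. The 19 genes lower among maternal transcripts in F0 with the 6 libraries alone compare with 10 in the fit of all 12. The 4 tested factor genes averaged 10.7 to 12.2 counts per library, which limits what could be seen.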
